A study of Canis lupus familiaris with 5 samples.

Results

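The genes described here are 8 regulators of programmed cell death by caspases: the inhibitor of apoptosis (IAP) genes BIRC2, BIRC3 and XIAP, the death receptor genes FADD, CASP8 and CFLAR, and the apoptosome genes APAF1 and CASP9. Members were all probe sets that the array annotation assigns to 1 of these symbols. All 8 genes had at least 1 probe set, 20 of the 42924 probe sets analysed, and they make up 8 of 15115 genes. Transcript levels came from Affymetrix canine arrays hybridised with total RNA from 5 dog lymphoid tumour cell lines, grown untreated in RPMI with fetal bovine serum. The B-labelled lines were 17-71, described as a B-lymphoid malignancy, and GL-1, a B-cell leukemia. The T-labelled lines were CL-1, a primitive alpha-beta T-cell leukemia, CLGL-90, a leukemia of large granular lymphocytes (LGL), and CLL-1390, a primitive T-cell leukemia. Every line was measured on a single array, so the error of a line's level cannot be estimated. Any SD or p-value rests on the spread between lines, from which the error of a single array cannot be separated.

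Caspases are proteases that are made as inactive precursors and dismantle the cell once cleaved. In the death receptor arm, the adaptor FADD recruits caspase-8 to receptors such as FAS, and CFLAR (c-FLIP), an inactive relative of caspase-8, competes for that site. In the mitochondrial arm, cytochrome c drives APAF1 into the apoptosome, which activates caspase-9. XIAP binds and inhibits caspases directly, whereas the proteins of BIRC2 (cIAP1) and BIRC3 (cIAP2) act mainly as ubiquitin ligases in TNF receptor and NF-kB signalling. BIRC3 is itself a well-known NF-kB target gene in lymphocytes.

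Values are log2 intensities as the authors normalized them, so 1 unit is a doubling. A gene's level below is that of its probe set with the highest mean over the 5 lines. As a guide to background, 59 control probe sets for sequences foreign to the dog gave per-array medians between 4.07 and 4.29 and highest values between 6.39 and 6.76. The 27 probe sets for spiked-in control transcripts ranged by 0.21 to 0.80 between arrays, and a difference between lines of less than log2 1 is given as a reading and not taken as an order. Among lineage markers, none of 6 B-cell genes reached log2 8 in any line. The closest was CD79A in line GL-1 (7.83), which exceeded the control maximum of that array (6.66). All remaining lines had CD79A readings from 5.15 to 5.80, under their control maxima. MS4A1, another B-cell gene, was highest in a T-labelled line, CLGL-90 (6.79), just over its control maximum (6.76). Of 8 T-cell genes, 2 reached log2 8 in 17-71, 4 in GL-1, 2 in CL-1, 8 in CLGL-90 and 5 in CLL-1390. Of 7 myeloid genes, 3 did so in 17-71, 4 in GL-1, 0 in CL-1 and 1 each in CLGL-90 and CLL-1390. CD14 alone made the counts in CLGL-90 and CLL-1390 and the excess of GL-1 over 17-71. It read 7.95 to 8.26 in all lines, on both sides of log2 8.

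**Figure D1:**
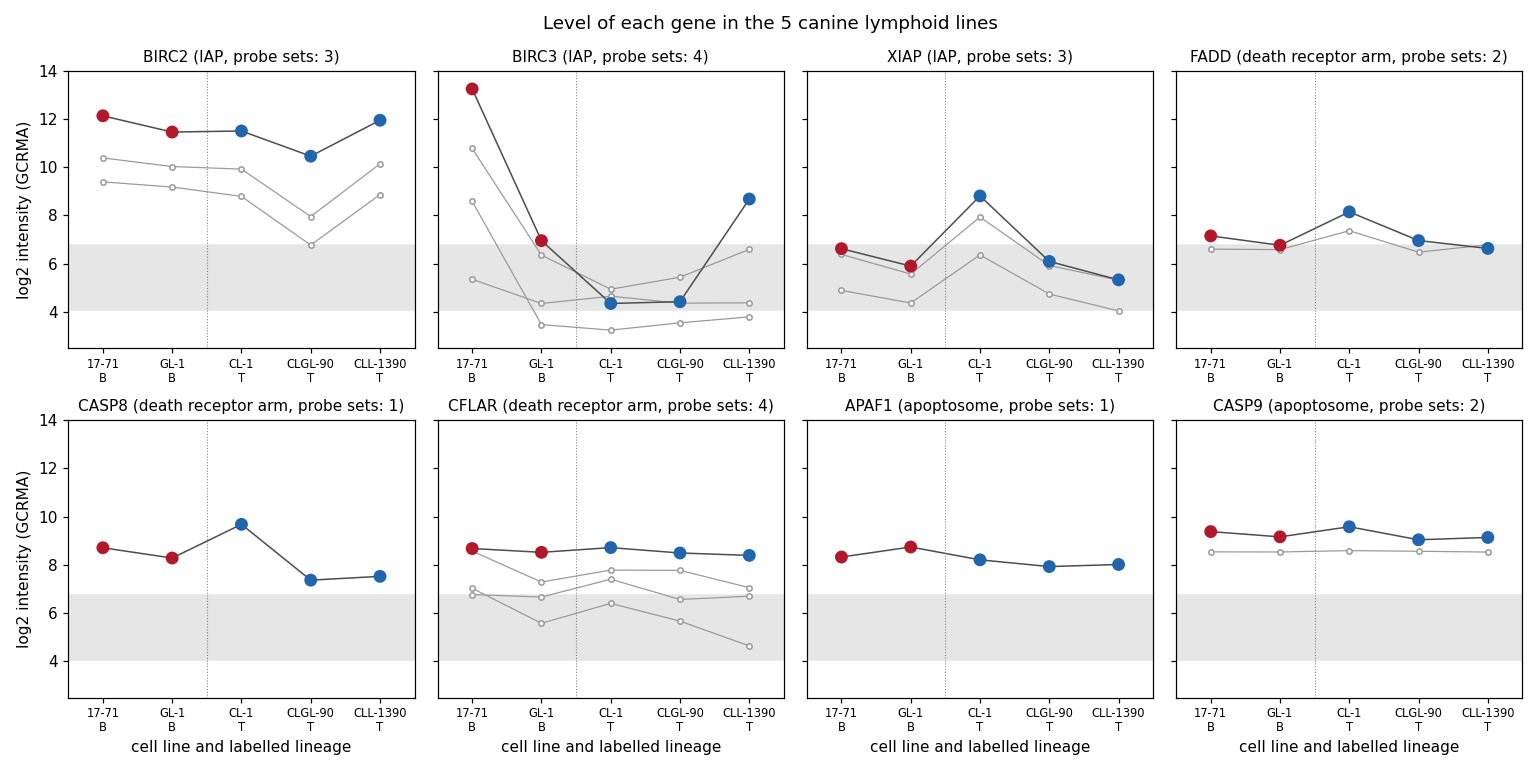
Level (log2 intensity) of each gene in the 5 lines, with the B-labelled lines left of the dotted line in red and the T-labelled lines right of it in blue. Filled points are the probe set that stands for the gene, open points its other probe sets, and the grey band runs from the lowest median to the highest maximum of the foreign-sequence controls. BIRC3 stands at 13.25 in 17-71 and XIAP at 8.81 in CL-1, each above all other lines.

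The 3 IAP genes differed between lines in 3 different ways: BIRC3 was by far highest in 17-71, XIAP was highest in CL-1, and BIRC2 was high in every line and lowest in CLGL-90. BIRC3 had the widest variation. Its level was 13.25 in 17-71 and 6.95 in GL-1, against 4.35 in CL-1, 4.42 in CLGL-90 and 8.68 in CLL-1390. Line 17-71 thus lay 4.57 (23.7-fold) above the next line, CLL-1390, and CLL-1390 lay above GL-1, so the lineages overlapped. The levels in CL-1 and CLGL-90 were near the control medians of their arrays (4.07 and 4.29), and that in GL-1 was 6.95 beside a control maximum of 6.66. The range over the 5 lines was 8.90, the seventh largest among 15115 genes, with 0.0397% of genes ranging more widely. Because the low end is at background, the size of that range depends on background. Each array sums a whole culture, so fewer expressing cells and less RNA per cell cannot be told apart.

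The other BIRC3 probe sets also placed 17-71 highest, 4 of 4 in all. The second probe set, which shares probes between transcripts, read 10.78 in 17-71 and 6.35 in GL-1, against 4.94 in CL-1, 5.44 in CLGL-90 and 6.59 in CLL-1390. On it the level in CLL-1390 did not exceed the control maximum of its array (6.70). Another read 8.58 in 17-71 and 3.47 in GL-1, against 3.24 in CL-1, 3.55 in CLGL-90 and 3.79 in CLL-1390. The last stayed between 4.35 and 5.35 in all lines, within the control range. The lead of 17-71 was seen at log2 4.18 or more on 3 probe sets, on 2 of which the next line was at background, and the intermediate level of CLL-1390 rested on 1. Which transcripts each BIRC3 probe set detects was not tested.

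BIRC2, the close paralogue of BIRC3, had a level of 12.13 in 17-71 and 11.46 in GL-1, against 11.50 in CL-1, 10.46 in CLGL-90 and 11.95 in CLL-1390. This probe set was well above the controls in all lines, and the lineages overlapped. CLGL-90 lay 1.0003 on the log2 scale (2.0-fold) below the next line. Both other BIRC2 probe sets gave CLGL-90 a wider distance below the next line, 1.97 and 2.02. On the first of these CLGL-90 read 7.95 where the other lines read 9.92 to 10.38, and on the second it read 6.77 where they read 8.79 to 9.39. The reading of 6.77 was at the control maximum of that array (6.76), so 2.02 is measured against background. After quantile normalization again the distance on the main probe set was 0.81, still with CLGL-90 lowest. In the reference dog gene table BIRC2 and BIRC3 lie side by side with 1 predicted gene between them. BIRC2 did not share the high value of BIRC3 in 17-71, where it was only 0.18 above CLL-1390.

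XIAP, the direct caspase inhibitor, had a level of 6.62 in 17-71 and 5.90 in GL-1, against 8.81 in CL-1, 6.09 in CLGL-90 and 5.33 in CLL-1390. CL-1 was 2.19 (4.55-fold) above the next line, 17-71, and the remaining lines lay within the range of the foreign-sequence controls. Line 17-71 itself was at its array's control maximum (6.60), so the fold is measured against background. All 3 XIAP probe sets placed CL-1 highest, by 2.19, 1.55 and 1.47. The dimmest of them read 6.36 in CL-1, under the control maximum of that array (6.39).

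**Figure D2:**
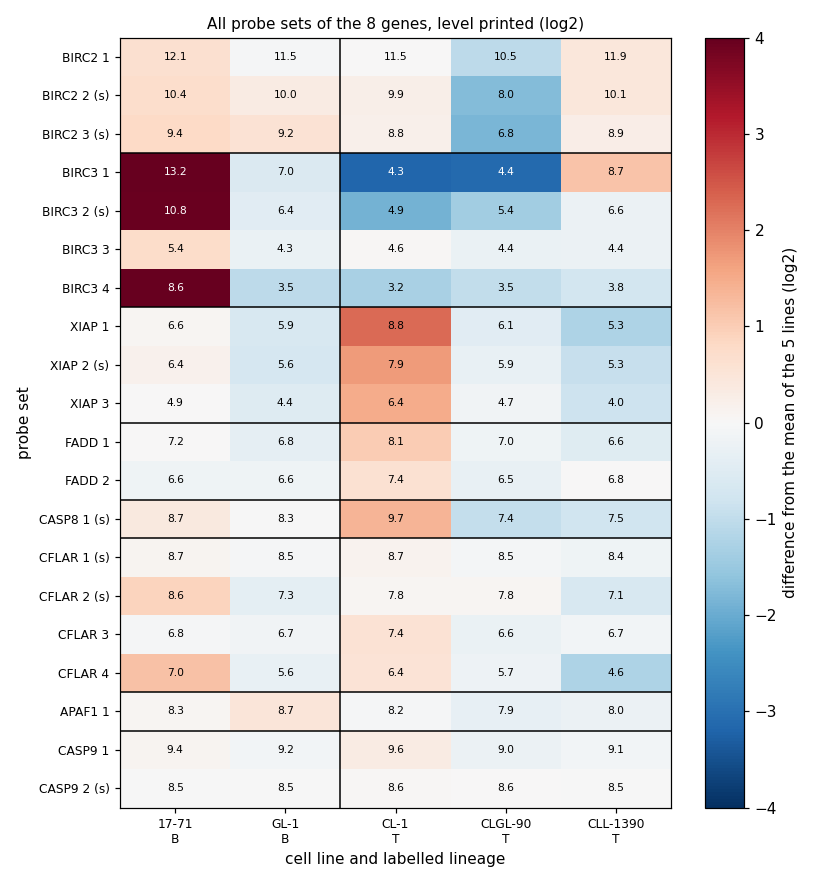
Every probe set of the 8 genes (rows, numbered by falling mean, with "s" for probes shared between transcripts) in the 5 lines (columns, B-labelled left of the black line). Colours give the difference from the row's mean over the 5 lines in log2 units, saturating at 4, and the printed numbers are the levels. The 3 XIAP rows are all reddest in CL-1, and the 3 BIRC2 rows all bluest in CLGL-90.

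In the death receptor arm, CASP8 and FADD each read highest in CL-1, by just under log2 1, while the probe sets of CFLAR disagreed. CASP8, which encodes the initiator caspase of that arm, had a level of 8.71 in 17-71 and 8.29 in GL-1, against 9.68 in CL-1, 7.37 in CLGL-90 and 7.53 in CLL-1390. Its levels exceeded the controls in all 5 lines and spanned 2.31, from CLGL-90 at the low end to CL-1. The B-labelled lines lay between CL-1 and the pair of CLGL-90 and CLL-1390, so the lineages overlapped. The step from 17-71 to CL-1 was 0.97, just short of the log2 1 used to order lines. CASP8 had a single probe set, so this pattern has no second measurement.

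FADD, the adaptor that carries caspase-8 to the receptor, had a level of 7.15 in 17-71 and 6.76 in GL-1, against 8.15 in CL-1, 6.96 in CLGL-90 and 6.63 in CLL-1390. CL-1 again read highest, 0.995 above 17-71, and the other lines were within 0.52 of each other and close to the control maxima. The second FADD probe set read 6.60 in 17-71 and 6.58 in GL-1, against 7.37 in CL-1, 6.48 in CLGL-90 and 6.78 in CLL-1390, so it too read highest in CL-1, by less than log2 1.

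CFLAR, the caspase-8 inhibitor, was the member that varied least on its brightest probe set. Its level was 8.68 in 17-71 and 8.52 in GL-1, against 8.72 in CL-1, 8.50 in CLGL-90 and 8.39 in CLL-1390, a range of 0.32 with no order among the lines. Of all genes, 85.6% ranged more widely. Its other probe sets did not share this flat pattern. One read 8.57 in 17-71 and 7.29 in GL-1, against 7.79 in CL-1, 7.77 in CLGL-90 and 7.06 in CLL-1390. The dimmest read 7.03 in 17-71 and 5.58 in GL-1, against 6.40 in CL-1, 5.67 in CLGL-90 and 4.64 in CLL-1390. These had ranges of 1.52 and 2.39, both between readings in 17-71 and CLL-1390 at the ends, and the remaining one had a range of 0.84. The 4 probe sets thus disagreed on how far CFLAR varied, and which transcripts each one detects was not tested. CFLAR, CASP10 and CASP8 are consecutive in the reference gene table. CASP10, another initiator caspase, read 5.57 to 6.27 and did not exceed the controls in any line.

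Both apoptosome genes ranged by less than log2 1 over the lines. APAF1, the scaffold, had a level of 8.33 in 17-71 and 8.74 in GL-1, against 8.21 in CL-1, 7.93 in CLGL-90 and 8.02 in CLL-1390. Both B-labelled lines were above every T-labelled line, by 0.12 at the narrowest point. CASP9, which encodes the caspase activated there, had a level of 9.38 in 17-71 and 9.16 in GL-1, against 9.58 in CL-1, 9.04 in CLGL-90 and 9.14 in CLL-1390. Its range of 0.54 was within that of the spiked-in controls, and its second probe set ranged by 0.06. A flat probe set that is bright in all lines cannot show whether it would respond to a change.

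Across the 8 genes, 3 (37.5%) ranged by log2 2 or more, BIRC3, XIAP and CASP8, where 13.7% of all genes did. The median range was 1.59 for the members and 0.73 for all genes. BIRC2, with 1.67, lay just under that limit, and it reached 2.43 and 2.62 on its other probe sets. Without CL-1, BIRC3 alone ranged by log2 2 or more, since XIAP then ranged by 1.29 and CASP8 by 1.34.

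**Figure D3:**
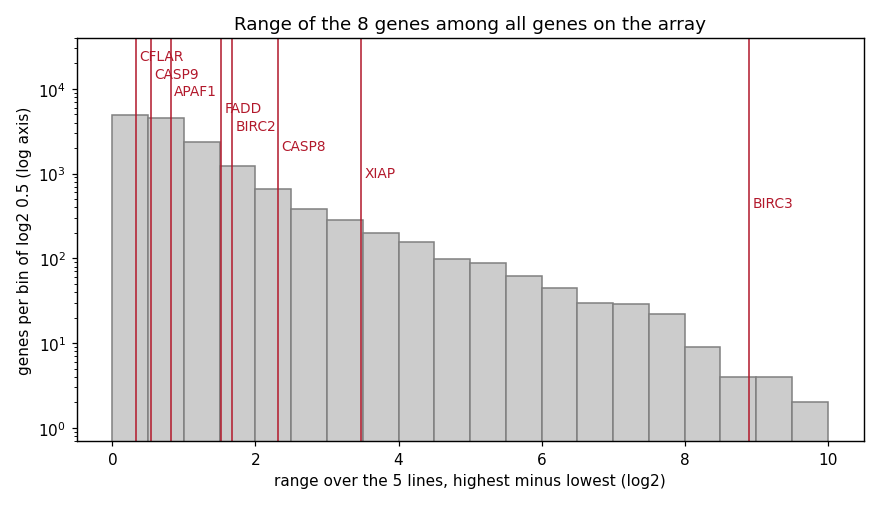
Range over the 5 lines (highest minus lowest, log2) of all 15115 genes, as grey bars with the number of genes per bin on a log axis, and of the 8 members as red lines. BIRC3 (8.90) lies in the far tail, XIAP (3.48) and CASP8 (2.31) lie beyond log2 2, and CFLAR (0.32) and CASP9 (0.54) lie below the median of all genes (0.73).

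CL-1 had the highest level in 5 of the 8 genes (XIAP, CASP8, FADD, CFLAR and CASP9), where it was the highest line in 23.1% of all genes. In CFLAR the lead was 0.04 and in CASP9 0.20, within the differences between spiked-in controls. A lead of at least log2 1 was found in 1 of 8 (XIAP), against 3.49% of all genes. With each array centred on its median this count was 3, as CASP8 and FADD then led by 1.06 and 1.09. After quantile normalization again it was 1, and CL-1 was highest in 4 genes because CFLAR passed to 17-71. CL-1 had the lowest array median (6.87), so centring raises all its values against the other lines. The shares of all genes given here are for the deposited values. They were not computed under either scaling, so counts after rescaling cannot be set against them. Line 17-71 led by at least log2 1 in 1 of 8 (BIRC3), against 1.98% of all genes. CLGL-90 was lowest by at least log2 1 in 1 of 8 (BIRC2), against 0.734% of all genes, and in 0 after quantile normalization again. GL-1 and CLL-1390 stood apart in none of the 8, where GL-1 led by log2 1 in 1.07% of all genes and CLL-1390 in 1.46%.

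No member passed the test between the labelled lineages. In limma fitted to all 5 lines, 0 of the 8 genes and 0 of the 17 probe sets tested passed an adjusted p of 0.05, and 0 of either had an unadjusted p under 0.05. Over the whole array 0.00706% of genes and 0.0136% of probe sets passed, and 3.52% of genes had an unadjusted p under 0.05. BIRC3 averaged 10.10 ± 4.45 in B-labelled lines (SD, n = 2) and 5.82 ± 2.48 in T-labelled lines (SD, n = 3). This difference of 4.28 (SE 2.38, 95% confidence interval -1.94 to 10.50, limma adjusted p = 0.99995) was within the spread of the lines. Single lines set its size: without 17-71 it was 1.14, and without GL-1 it was 7.43, with adjusted p-values of 1 and 0.8004 by limma.

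On the probe sets that stand for the genes, the remaining differences were smaller than 0.5 in size. BIRC2 averaged 11.79 ± 0.48 in B-labelled and 11.30 ± 0.76 in T-labelled lines, a difference of 0.49 with a 95% interval of -0.86 to 1.85. Without CLGL-90 it was 0.07, without 17-71 0.16, and without GL-1 and without CLL-1390 0.83 and 0.81. The other BIRC2 probe sets differed by 0.87 (-1.06 to 2.79) and 1.14 (-0.75 to 3.03) with all lines. APAF1 averaged 8.54 ± 0.29 and 8.05 ± 0.14 in the B-labelled and T-labelled lines, a difference of 0.48 (interval -0.08 to 1.04), and 0.27 without GL-1. On the probe sets that stand for the genes it was the only member whose lineages did not overlap. The third BIRC2 probe set did not overlap either, at 9.39 and 9.18 in the B-labelled lines and at most 8.87 in the T-labelled lines. Of the genes tested, 6.12% likewise had both B-labelled lines above every T-labelled line, and 15.4% did not overlap in either direction. The 1 of 8 (12.5%) is thus near the background. The count of members without overlap was 2 with each gene's widest probe set, 4 without CL-1, 3 without GL-1 and 2 without CLL-1390. Leaving out a line makes non-overlap at least as common for any set of genes. The share of all genes was not computed in these settings, so these counts cannot be set against 15.4%. CASP8 differed by 0.31 (-1.76 to 2.38) with all lines. Without 1 line at a time it was 1.05 without CL-1, 0.52 without GL-1, 0.09 without 17-71, -0.03 without CLL-1390 and -0.11 without CLGL-90. CFLAR differed by 0.07 (-0.43 to 0.56) and CASP9 by 0.02 (-0.61 to 0.64). Below 0 were XIAP at -0.48 (-3.40 to 2.43) and FADD at -0.29 (-1.62 to 1.05), and both turned positive without CL-1, at 0.55 and 0.16. The intervals leave room for differences of several-fold in the IAP genes, CASP8 and FADD, while those of CFLAR and CASP9 lie between -0.61 and 0.64 on these probe sets. On its widest probe set CFLAR differed by 0.73 (-1.08 to 2.55). The median difference was 0.19 over the members and -0.03 over all genes tested. Of 7 myeloid markers, LYZ, S100A8 and S100A9 were higher in both B-labelled lines, while CD14, CSF1R, ITGAM and MPO did not separate the labels. The mean level of the 7 was 8.41 in 17-71 and 8.42 in GL-1, against 5.58 in CL-1, 5.67 in CLGL-90 and 5.90 in CLL-1390, LYZ being at 12.39 in 17-71, 12.01 in GL-1 and no more than 4.02 in any T-labelled line, while CD14 read 7.95 to 8.26 in all lines. Their part in these differences was not tested.

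**Figure D4:**
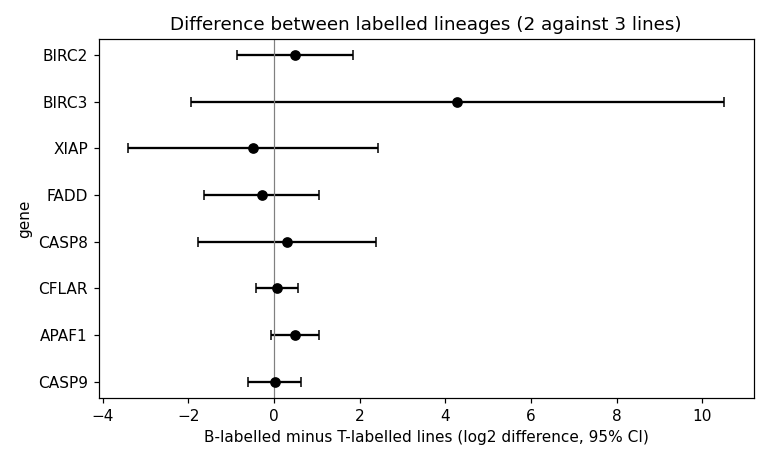
Difference between B-labelled (n = 2) and T-labelled (n = 3) lines for each gene in log2 units, as points with the 95% confidence interval of the limma fit. All 8 intervals include 0, and that of BIRC3 (-1.94 to 10.50) is the widest.

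The other genes of the pathway were read from 7 lists with 90 genes on the array, of which 88 were tested. By limma 0 of the 88 passed in either direction, and 9 had an unadjusted p under 0.05, where 3.52% of all genes did. The median difference per list ran from -0.28 for the other caspases to 0.26 for the TRAF and non-canonical NF-kB list, against -0.03 for all genes tested. A range of log2 2 or more was found in 28 of the 90 (31.1%, against 13.7% of all genes). Line 17-71 led by at least log2 1 in 11 of them and CL-1 in 8, against 1.98% and 3.49% of all genes. The lists were chosen with earlier results of these data known, so these shares are descriptions only.

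Of the other IAP genes and IAP antagonists, 0 of 9 ranged by log2 2 or more, against 13.7% of all genes. Their median range was 0.84, against 0.73 for all genes, and their median difference between lineages was -0.12. BIRC5 (survivin), which serves in mitosis as well, was the most variable, at 11.32 in 17-71 and 11.16 in GL-1, against 10.80 in CL-1, 12.75 in CLGL-90 and 11.85 in CLL-1390. HTRA2, a mitochondrial protease that binds IAPs, ranged from 8.41 in GL-1 to 10.14 in CLL-1390. The ubiquitin ligase ARIH2 and the deubiquitinase USP11 ranged by 1.09 and 1.03. XAF1, an XIAP-binding protein, read 7.43 in CL-1, the line highest in XIAP, and 7.77 to 8.28 in the others.

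Among the other caspases, 2 of 6 ranged by log2 2 or more (33.3%), and both belong to the inflammatory group. CASP4 read 7.95 in 17-71 and 9.35 in GL-1, against 5.51 in CL-1, 8.70 in CLGL-90 and 6.41 in CLL-1390, the lowest pair being within the control range. CASP12 was highest in CLGL-90 at 9.87, 2.01 above the next line. CASP2 ranged by 1.30 and CASP6 by 1.24, with CASP6 highest in CL-1 at 12.11.

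Of 17 apoptosome and caspase substrate genes, 1 ranged by log2 2 or more (5.88%). LMNA, which encodes lamin A and C, stood at 11.84 in 17-71 against 7.07 to 8.50 elsewhere. PARP2, GSDMD, AVEN and PAK2 ranged by 1.81 to 1.98, and AVEN, a protein that binds APAF1, was highest in CL-1 at 10.78. CYCS (cytochrome c) read 13.19 to 13.60 in all lines.

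Of 20 death receptor, ligand and adaptor genes, 7 ranged by log2 2 or more (35%, against 13.7% of all genes). FAS, the receptor that recruits FADD, was at 9.50 for 17-71 and 7.57 for GL-1, against 4.71 in CL-1, 4.72 in CLGL-90 and 5.20 in CLL-1390. Both B-labelled lines were above all T-labelled lines, which lay under the control maxima. The difference of 3.66 (SE 0.61) did not pass over all genes (limma adjusted p = 0.80167). CL-1, which read highest in FADD and CASP8 by less than log2 1, was at background for FAS. FASLG, the ligand, was highest in CLGL-90 at 11.52, against 6.50 to 8.71 elsewhere. CYLD, a deubiquitinase of TNF receptor complexes, stood at 9.86 in 17-71 and 5.48 in CL-1, and TNFRSF1A, the main TNF receptor, at 5.40 in CL-1 against 7.35 to 9.01 elsewhere. PEA15, a death effector domain protein, was highest in 17-71 at 9.15.

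BIRC2 and BIRC3 proteins work with TRAF adaptors to restrain the non-canonical NF-kB arm, and 5 of 11 genes of that list ranged by log2 2 or more (45.5%). In 17-71, the line highest in BIRC3, CD40 stood at 9.17 against 4.78 to 5.49, LTBR at 10.08 against 7.36 to 8.30 and RELB at 8.77 against 6.09 to 7.17. CD40 and LTBR are receptors that feed this arm, and RELB is its transcription factor. These were the only 3 of the 11 genes in which 17-71 led by at least log2 1, against 1.98% of all genes. NFKB2, the partner of RELB, was high in both 17-71 (9.10) and CL-1 (9.81), against 7.09 to 7.57 in the other lines. TRAF5 was highest in CLL-1390 at 8.25. In CL-1, BIRC3 was at background beside this NFKB2 level. Whether any of these levels is linked to BIRC3 was not tested.

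NF-kB response genes varied most often, 10 of 18 by log2 2 or more (55.6%), and they did not move as a block. ICAM1 and REL were highest in 17-71, at 10.28 and 8.55, as BIRC3 was. BCL2A1, an anti-apoptotic BCL2 relative, read 13.85 in 17-71 and 11.34 in GL-1, against 5.92 in CL-1, 13.36 in CLGL-90 and 6.28 in CLL-1390. CCL3 and CCL4, chemokine genes, were highest in CLGL-90 at 13.29 and 8.61. Line 17-71 led by log2 1 or more in 3 of the 18 and CL-1 in 5, against 1.98% and 3.49% of all genes. CLGL-90 did so in 2, and its share over all genes was not computed. Of the BCL2 family, 4 of 12 ranged by log2 2 or more (33.3%). MCL1, which guards mitochondria, was highest in 17-71 at 13.24, and BAX, which permeabilises them, in CL-1 at 11.59. BCL2L1 (10.40) was also highest in CL-1, where BAD read 9.42 against 7.20 to 8.69 elsewhere.

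**Figure D5:**
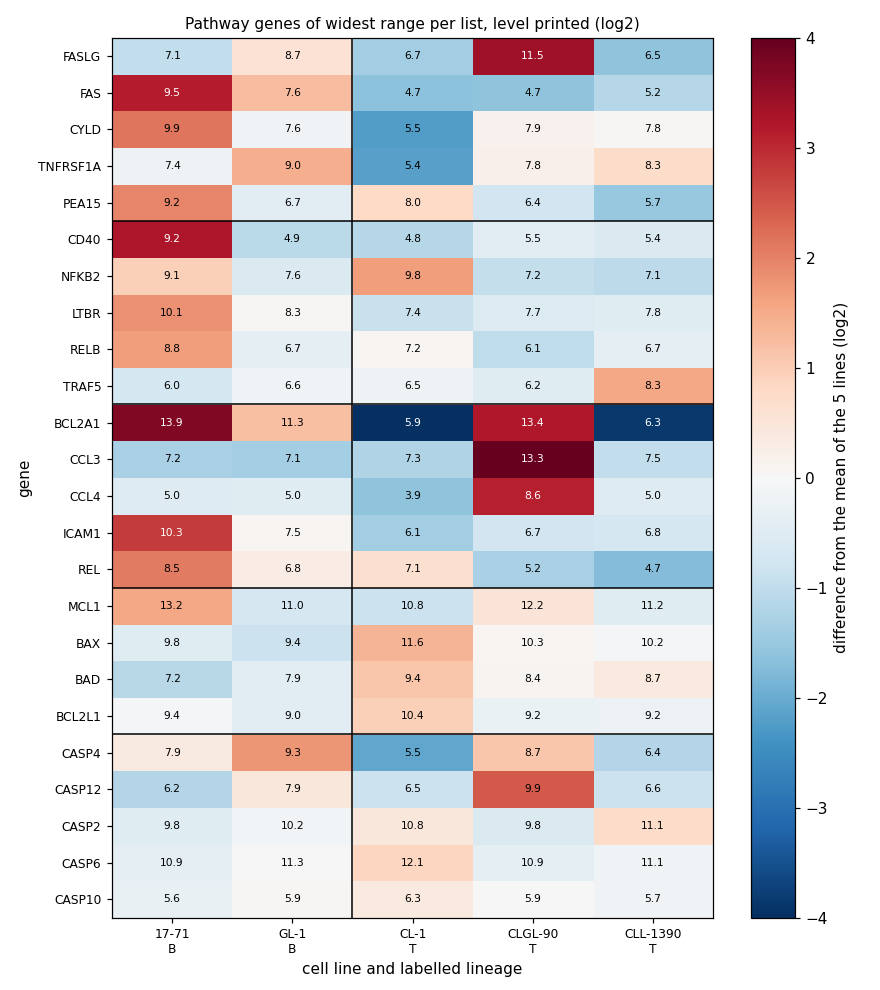
Levels of the pathway genes with the widest range in 5 lists (rows; from the top, death receptors, TRAF adaptors and non-canonical NF-kB, NF-kB response, BCL2 family, other caspases) in the 5 lines (columns). Colours give the difference from the row's mean over the 5 lines in log2 units, saturating at 4, and the numbers are levels. FAS, CD40 and ICAM1 are reddest in 17-71, and FASLG, CCL3 and CCL4 in CLGL-90.

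The genes whose levels ran most like those of the 3 variable members were found among 2065 other genes with a range of log2 2 or more, by the root mean square difference of log2 levels over the 5 lines, after each gene was centred on its own mean. For CASP8 the nearest was NR3C1, the glucocorticoid receptor, with a difference of 0.11. NR3C1 read 9.66 in 17-71 and 9.33 in GL-1, against 10.70 in CL-1, 8.65 in CLGL-90 and 8.63 in CLL-1390. FAM91A1 (0.13) and SLC30A9, a zinc transporter family member (0.16), followed. For XIAP they were HOXA5, a homeobox factor (0.24), PKP2, a desmosome protein (0.24) and TM7SF2, a sterol reductase (0.25), all highest in CL-1. For BIRC3 the nearest were MTURN (1.27), LOC487977 (1.29) and KLHDC9 (1.46), all highest in 17-71. Levels were not scaled, so the difference tends to be larger for a gene of wide range. The ranges were 8.90 for BIRC3, 3.48 for XIAP and 2.31 for CASP8, so these differences are not compared between members. With 5 points per gene and many candidates, these are descriptions only.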

How the data were processed

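Gene expression was measured on 1 Affymetrix canine array for each of 5 lymphoid lines, grouped by the labelled lineage. Each probe set's deposited value is a log2 intensity. The authors made it with GCRMA, per the submitters' processing notes, whose version is not given in the sources used here. GCRMA corrects background by probe sequence, which compresses or enlarges differences near background. Of 43035 probe sets, 111 Affymetrix controls were left out, and 29254 of the rest had 1 gene symbol, with symbols updated through gene IDs in the UU_Cfam_GSD_1.0 gene table. A gene is its probe set of highest mean. The test took in the 36661 probe sets, and 14162 genes, with log2 5 or more on 2 or more arrays, B-labelled minus T-labelled, with limma 3.58.1 in R 4.3.3 (lmFit, eBayes, two-sided, Benjamini-Hochberg over all features, threshold 0.05). The fit was also run on simulated data of 36661 probe sets, of which 200 were shifted. The noise was normal and independent, with variances drawn from the distribution that limma had fitted to these data. The fit recovered 0% of shifts of log2 1 or 2, 71.5% at 4 with 8 false calls and 87% at 6 with 11. These rates hold for data that obey the model, and are not the power for genes in these lines. The number of arrays limits the precision. Of each list, up to 5 genes of widest range were named. CYCS, LYZ and CD14 lie outside that rule and were chosen after their values were seen. Members, lists and tests were chosen with earlier results of these data known. No sequences are shown.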

Additional observations from a re-analysis of the deposited data

How the results depend on the processing

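Over 16 alternatives, 0 member probe sets and 0 pathway genes passed in any setting in which they were tested, with 0 or 1 member gene at an unadjusted p under 0.05, and the lowest adjusted p of a member was 0.8004 for genes and 0.3748 for probe sets (both without GL-1). XIAP was not tested with the filter at log2 7. The differences of BIRC2 (0.07 to 1.14), BIRC3 (1.14 to 7.43) and APAF1 (0.27 to 0.69) kept their sign throughout. That of CFLAR was 0.73 on its widest probe set. With CLGL-90 as its own group CASP8 turned to -0.11 and CASP9 to -0.089, and CASP9 was -0.000505 with centred arrays and -0.0038 as the mean of its probe sets. Leaving out 1 line at a time, CASP8 ran from -0.11 to 1.05, CASP9 from -0.091 to 0.18, CFLAR from -0.014 to 0.16, FADD from -0.60 to 0.16 and XIAP from -1.19 to 0.55. The count of members ranging by log2 2 or more was 3, 5 with each gene's widest probe set or at a limit of log2 1, 4 with the mean of probe sets, 2 at a limit of log2 3, and 1 to 3 with a line left out. The share of all genes, 13.7%, is that of the main setting, so the counts of the other settings cannot be set against it. Over the array, 5 probe sets and 1 gene passed. These counts were 3 probe sets without a filter, 14 and 9 with the filter at log2 7, 3 and 8 with centred arrays, 8 genes after quantile normalization again, 15 and 10 with an intensity trend, 0 of either with CLGL-90 set apart, and 0 without any 1 line. With the widest probe set 11 genes passed, and with the mean of probe sets 3. The cause was not tested. Signal over background limits BIRC3 and XIAP, whose lowest lines lie within the control range. It also limits FADD, where CLL-1390 (6.63) lies under its control maximum (6.70) and GL-1 and CLGL-90 lie just above theirs. No paired analysis was possible because each array is a different line, and the labels match no B-labelled line to a T-labelled line.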
